A study of Homo sapiens with 4 samples.

Results

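The subunits of the respiratory chain that are encoded in the nucleus were followed through the RNA that came down with PRMT5, an arginine methyltransferase, in Jurkat cells. Members were the peaks whose gene carried a protein-coding symbol of the NDUFA, NDUFB, NDUFC, NDUFS or NDUFV series, SDHA to SDHD, the UQCR series, the COX4 to COX8 series, the ATP5F, ATP5M or ATP5P series, CYC1 or CYCS. This gave 183 of 18993 peaks, and 84 of the 8478 genes with a peak. Among the called peaks the names alone decided which were members, by a rule set with earlier results of these data known. The calling of a peak itself rests on RIP against input. The reference held 97 such symbols, and 13 of them had no peak of their own.

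Jurkat is an established human leukemic T cell line. The cells of both groups were treated with PHA, a lectin that stimulates T cells, for 48 hours and were then crosslinked with UV light (264 nm and 400 mJ in the sample labels). The first group was RNA recovered by FLAG immunoprecipitation of PRMT5 (PRMT5 RIP, 2 libraries) and the second was input RNA (2 libraries). Both groups shared the cell line, the PHA and the UV, and cells without PHA or an immunoprecipitation without PRMT5 were not analysed here. One peak list stood for all 4 libraries. Each of its peaks had an RPM value (a read count scaled to the size of the library) in PRMT5 RIP and another in input. The values were pooled, so there was no spread between replicates, no test could be made, and every difference below is a description of these pooled libraries. The depth of the libraries is unknown. Of 10 T cell marker genes, all 10 had a peak, CD3D and LCK among them. Of 10 markers of other cells, 2 had a peak (CD79A and CSF1R), and MS4A1, CD14, EPCAM and ALB had none. CD79A and CSF1R had inputs of 37.3 and 29.5 RPM, inside the range of the T cell markers (0.69 RPM for CD5 to 417 RPM for CD3D). Since a peak rests on RIP against input, these counts are no full check of cell identity.

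The respiratory chain lies in the inner membrane of mitochondria. Complexes I and II take electrons from NADH and succinate, complex III passes them to cytochrome c, complex IV hands them to oxygen, and complex V uses the proton gradient to make ATP. Most subunits are made from nuclear genes in the cytosol and imported, while a small core of membrane subunits is encoded by mitochondrial DNA. Activated T cells are known for building up mitochondria, and NRF1 and GABP (also called NRF2) are known as activators of many of these nuclear genes.

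Of the 84 genes with a peak, 35 belonged to complex I, 4 to complex II, 9 to complex III, 11 to complex IV and 17 to complex V. The others were CYCS (cytochrome c itself), UQCRHL (a retrocopy of UQCRH) and 6 NDUFAF genes, which encode assembly factors of complex I and fall under the name NDUFA only by spelling. Complexes II, III and V were complete for the symbols searched. Complex I lacked NDUFS1, the largest core subunit, and NDUFA7, which was listed only in second place in a peak of another gene at chr19:8311409-8321370 (hg38) with 105 RPM in RIP and 68.8 RPM in input. Complex IV lacked COX4I2, COX6A2, COX6B2, COX7A1, COX7B2 and COX8C. These 6 genes encode isoforms known for heart, skeletal muscle, lung or testis, and their common counterparts COX4I1, COX6A1, COX6B1, COX7A2, COX7B and COX8A all had a peak. NDUFAF1, NDUFAF7, ATP5MGL and the read-through genes ATP5MF-PTCD1 and NDUFC2-KCTD14 also had none. COXFA4, whose older symbol was NDUFA4, was no member by its current name, and its summed RPM was 19.7 in RIP and 25.4 in input.

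The peaks of these genes usually opened at the start of the gene. In 64 of the 84 genes (76.2%) the first peak began within 25 nt of the start of the RefSeq gene. In 58 genes at least 50% of the gene lay inside its peaks, with a median of 73.5%. Neither count was made over all genes, so whether they are particular to the members is unknown. Member peaks had a median width of 1804 nt, against 275 nt over all peaks. The sequence just before that point could be read for 69 members from the RefSeq promoters of GRCh38.p14, each holding 250 bases before and 50 bases after the start. The core GABP motif, CCGGAAG or CTTCCGG on the other strand, stood in 20 of the 69 windows (29.0%), against 10.7% of all 27305 promoters of the same length and 14.2% of those of protein-coding genes. The NRF1 motif GCGCATGCGC, which reads the same on both strands, stood in 5 of 69 (7.25%), against 1.36% of all promoters and 1.76% of protein-coding ones. The 2 motifs were counted separately, and SDHD held both, at separate places. A match is a description of letters and not of binding. The windows below lie before the gene start and are shown because they cover each complex, and because several of them belong to genes at the upper or lower end of the ratios described further on. Each is written 5′ to 3′ on the strand of its gene, with the motif in capitals.
NDUFA13 (chr19:19516199-19516224, plus strand, GABP): tcacttccgcccgggaCCGGAAGtgt
NDUFB7 (chr19:14572074-14572099, minus strand, GABP): ctaaatgacCCGGAAGctgtgtctga
SDHD (chr11:112086787-112086812, plus strand, GABP): gcctctcgaCTTCCGGttcacccagc
SDHD (chr11:112086755-112086780, plus strand, NRF1): ctgtgtttGCGCATGCGCgacgggtg
UQCRH (chr1:46303643-46303668, plus strand, GABP): tgtgccgcaCTTCCGGccagatcgcc
COX5B (chr2:97646016-97646041, plus strand, GABP): agcccgcccCCGGAAGtccctcctgt
COX6A1 (chr12:120438087-120438112, plus strand, GABP): tccacttccgCTTCCGGcgctgcggc
ATP5F1C (chr10:7788147-7788172, plus strand, NRF1): gagcttcgGCGCATGCGCgctgaggc

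Across the 84 genes, PRMT5 RIP exceeded input by less than in the list as a whole. For each gene the RPM values of its peaks were summed, and the measure was the log2 ratio of the sum in RIP to the sum in input, after adding 0.01 to each. The median ratio was 0.71 over the 84 genes, a 1.64-fold RIP over input, and 1.20 over all 8478 genes, which is 2.30-fold. A gene was called at 2 times input or more (a log2 ratio of at least 1), and this held for 30 of the 84 genes (35.7%) against a background of 62.3% of all genes. The 30 thus made up a smaller share than in the whole list, but with 1 added to each sum in place of 0.01 the shares were 33.3% of members and 30.0% of all genes. RIP was below input in 7 members, against 2.22% of all genes. Only 20 of the 84 lay above the median of all genes.

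The members also differed from the list in how abundant they were in input, and input level moved with the ratio. Of the 8478 genes, 3000 had a summed input under 1 RPM, and their median ratio was 1.68. Of the members only 1 lay in that class. Between 10 and 100 RPM of input, the 48 members had a median ratio of 0.77 and the 1835 genes of the list 0.80, and 35.4% and 33.4% of them were at 2 times input or more. At 100 RPM or more, the 22 members had a median of 0.62 and the 434 genes of the list 0.59. In these 2 classes the members were thus close to other genes of like input. Between 1 and 10 RPM the 13 members had a median of 0.42, below the 1.14 of 3209 genes. Across all genes the Spearman correlation of summed input with the ratio was -0.55, and across the 84 members it was -0.12. Both are correlations across genes of the same libraries, input enters both measures, and genes are not independent replicates.

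**Figure D1:**
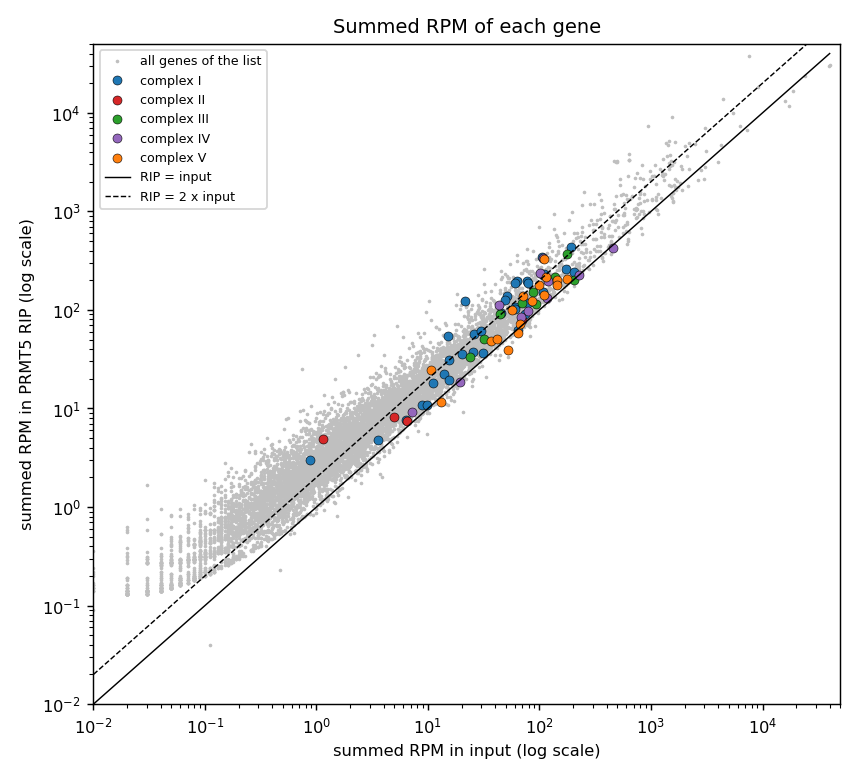
Summed RPM of each gene in input (horizontal, log scale) and in PRMT5 RIP (vertical, log scale), with all genes of the list in grey and the members coloured by complex. The solid line marks equal values and the dashed line a RIP of 2 times input, and most members lie between the lines at inputs above 10 RPM.

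**Figure D2:**
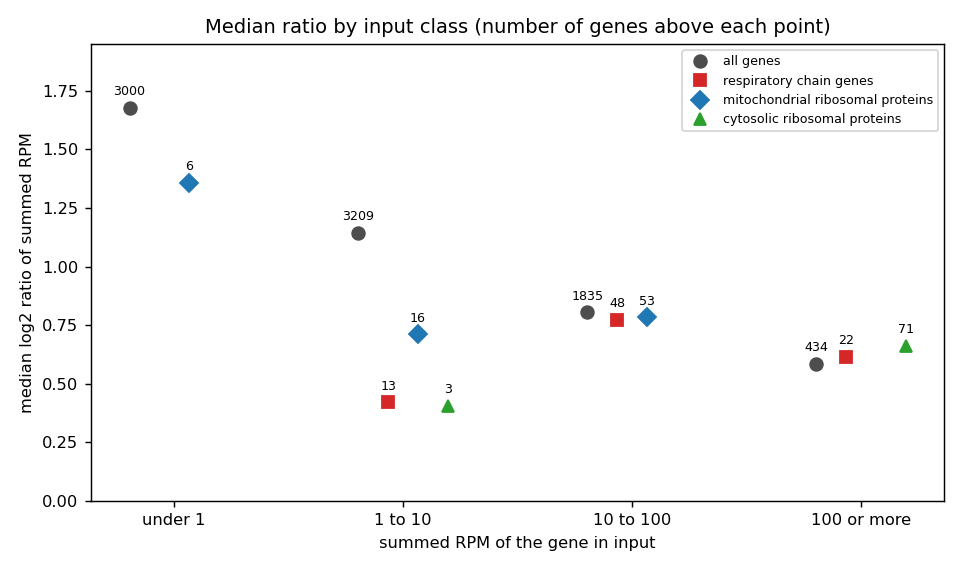
Median log2 ratio of RIP to input by class of summed input RPM, for all genes, the respiratory chain genes and the ribosomal protein genes, with the number of genes above each point and sets of under 3 genes left out. The respiratory chain genes sit at 0.77 and 0.62 in the 2 upper classes, beside 0.80 and 0.59 for all genes.

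The 5 complexes had different medians, with wide ranges that overlapped. Complex I had the highest median ratio, 0.85, and 17 of its 35 genes (48.6%) were at 2 times input or more. Each of the 5 complexes had a smaller share at that level than the 62.3% of all genes. That background includes the 3000 genes under 1 RPM of input, of which 86.1% were at 2 times input or more. Complex III had a median of 0.68 with 2 of 9 genes at that level, and complex II one of 0.46 with 1 of 4. Complex V had a median of 0.38 with 2 of 17, and complex IV one of 0.30 with 3 of 11. The quartiles were 0.46 and 1.29 in complex I and 0.24 and 0.84 in complex V. The spread inside each complex was thus wider than the distance between most medians. Complex I stayed highest under all alternatives tried, and the order of the other 4 changed with some of them. The complexes also differed in input. The median input of their peaks was 9.59 RPM in complex I, 1.43 in II, 15.8 in III, 25.5 in IV and 31.2 in V. The part of input in the order was not tested.

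**Figure D3:**
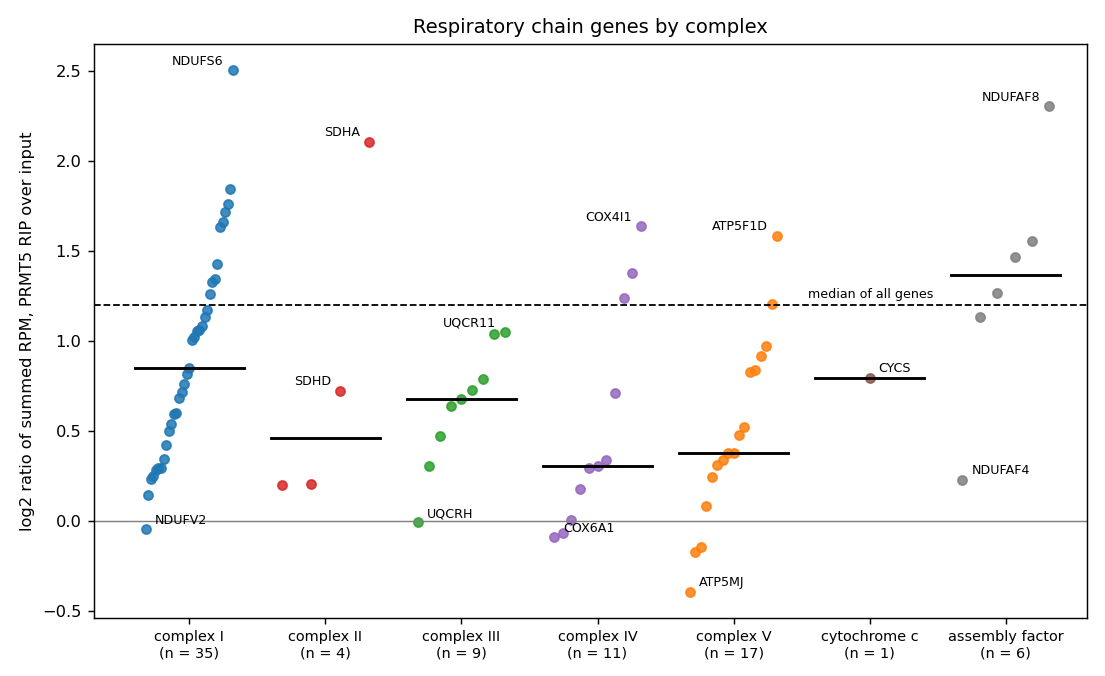
Log2 ratio of summed RPM in PRMT5 RIP over input for each gene (points), by complex, with the median of each group as a bar. The dashed line is the median of all genes (1.20) and the grey line marks equal RIP and input; complex I spans -0.05 to 2.50 and complex V -0.39 to 1.58.

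In complex I the core subunits, which carry the redox centres and the quinone site, did not stand apart from the accessory subunits around them. The median ratio was 0.94 over 6 core genes and 0.85 over 29 accessory genes. Among the core genes, NDUFS7 (225 and 106 RPM, ratio 1.08) and NDUFS8 (231 and 111 RPM, ratio 1.06), which hold iron-sulfur clusters, were above 2 times input. NDUFS3 had a ratio of 0.82 and NDUFV1, which binds FMN and receives electrons from NADH, one of 0.60. NDUFV2, the partner of NDUFV1, had 62.3 RPM in RIP and 64.3 RPM in input, or a log2 ratio of -0.05. This was the lowest ratio of the complex.

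The highest ratio of all 84 genes was that of NDUFS6 (ENSG00000145494), an accessory subunit that binds zinc. It had 123 RPM in RIP and 21.7 RPM in input, or a log2 ratio of 2.50 and a fold of 5.67, above 94.4% of all genes. Both of its peaks were high, with 91.5 and 15.8 RPM at chr5:1801407-1814466 and 31.7 and 5.95 RPM at chr5:1814692-1816042. NDUFA2 followed with 54.0 and 15.0 RPM and a ratio of 1.85, and NDUFA13, also known as GRIM-19, with 346 and 106 RPM and a ratio of 1.71. NDUFB7, of the membrane arm, had 198 and 62.7 RPM and a ratio of 1.66. NDUFB10 had the largest summed RIP value of the complex, 432 RPM against 192 RPM in input, a ratio of 1.17. At the other end, NDUFA11, NDUFB3 and NDUFA1, 3 small membrane subunits, had ratios of 0.25, 0.23 and 0.15. By name series, the 11 NDUFB genes had a median of 1.13, and 6 of them (54.5%) were at 2 times input or more. The 7 NDUFS genes had a median of 1.08 with 5 (71.4%) at that level, against 62.3% of all genes. The 12 NDUFA genes had a median of 0.70 and the 3 NDUFV genes one of 0.29.

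Complex II is the only one of the 5 with no subunit from mitochondrial DNA, and its 4 genes split into 1 high gene and 3 lower ones. SDHA, the flavoprotein that oxidises succinate, had 4.94 RPM in RIP and 1.14 RPM in input, or a log2 ratio of 2.11. Its 3 peaks began 6132 nt or more inside the gene, so none lay at the gene start. Each of the 3 listed 2 gene identifiers, and their inputs were only 0.55, 0.02 and 0.57 RPM. SDHA had no peak left among peaks of 1 identifier, or among those of at least 1 RPM in input. The median of complex II was then 0.20 in either case. SDHB, the iron-sulfur subunit, had 79.9 and 69.7 RPM and a ratio of 0.20. The membrane anchors SDHC and SDHD had ratios of 0.20 (7.51 and 6.53 RPM) and 0.72 (8.26 and 5.0 RPM). SDHB held both kinds of peak, since the peak at its start had a ratio of 1.27 (24.5 and 10.2 RPM) and the next, with the most reads, had one of -0.11 (53.4 and 57.5 RPM).

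The 9 genes of complex III lay close together. Its 2 redox subunits, CYC1 (cytochrome c1) and UQCRFS1 (the Rieske iron-sulfur protein), had ratios of 0.73 and 0.68, from 116 and 70.3 RPM and from 50.7 and 31.7 RPM. The core proteins UQCRC1 and UQCRC2, which face the matrix, had 0.64 and 0.47. Of the small subunits, UQCR11 had 367 RPM in RIP and 178 RPM in input (ratio 1.05), UQCRQ 91.3 and 44.5 RPM (1.04), UQCRB 152 and 87.9 RPM (0.79) and UQCR10 114 and 92.7 RPM (0.30). UQCRH, the hinge protein that helps dock cytochrome c, had equal values of 201 and 203 RPM (ratio -0.01). Its retrocopy UQCRHL had 7.45 and 5.28 RPM, and since the copies are near-identical, the split of reads between them is uncertain. CYCS, the electron carrier between complexes III and IV, had 60.5 and 34.9 RPM and a ratio of 0.80.

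Complex IV fell into a high and a low set of genes with a gap between. COX4I1, the largest nuclear subunit, had 336 and 108 RPM and a ratio of 1.64, COX7B 113 and 43.7 RPM and a ratio of 1.38, and COX5B 236 and 100.1 RPM and a ratio of 1.24. COX8A lay between, at 0.71. The other 7 genes lay at 0.34 or below. COX7C (0.29), COX5A (0.18) and COX6B1 (0.00, from 227 and 226 RPM) were among them. COX7A2 (18.5 and 19.4 RPM) and COX6A1 (426 and 454 RPM) were below input, with ratios of -0.07 and -0.09. COX6A1 also had the largest summed RIP value of the complex, and its 2 peaks had ratios of -0.07 and -0.13.

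In complex V the subunits of the catalytic F1 head ranged widely. ATP5F1D, the delta subunit of the central stalk, had 326 and 109 RPM and a ratio of 1.58. The alpha and beta subunits ATP5F1A and ATP5F1B, which form the catalytic ring, had 0.52 and 0.34, and the gamma and epsilon subunits ATP5F1C and ATP5F1E had 0.08 and 0.24. The 3 genes ATP5MC1, ATP5MC2 and ATP5MC3 are known to encode the same mature c-ring subunit behind different import sequences. Their ratios were 0.83 (99.9 and 56.3 RPM), 0.48 (200.1 and 144 RPM) and 0.97 (140.0 and 71.4 RPM), so all 3 were above input and below 2 times input. Of the peripheral stalk, ATP5PD had 0.91, ATP5PB 0.38, ATP5PF 0.31 and ATP5PO, the link to the F1 head, -0.15. The small membrane subunits also ranged widely and held the low end of the complex. ATP5MG (24.8 and 10.7 RPM) had 1.20 and ATP5ME 0.84, while ATP5MF had 0.37, ATP5MK -0.18 (11.7 and 13.2 RPM) and ATP5MJ -0.39. ATP5MJ, with 39.4 RPM in RIP and 51.8 RPM in input, had the lowest ratio of all members.

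Along the genes, the ratio was mostly higher at the 5′ end. Of the 58 members with 2 or more peaks, the 5′-most peak had a higher ratio than the 3′-most in 51 (87.9%), against 69.5% of all 4657 such genes. The median ratio was 1.08 at the 5′-most and 0.42 at the 3′-most peak, and 1.39 and 0.96 over all genes. The direction held in 9 of 9 genes of complex IV and 10 of 10 of complex V, in 21 of 25 of complex I, 6 of 7 of complex III and 1 of 3 of complex II. NDUFS3 showed it in steps, with ratios of 2.24, 1.37, 0.59 and 0.31 over its 4 peaks from 5′ to 3′. COX7B had 17.9 and 3.0 RPM (2.57), 52.5 and 16.0 RPM (1.71) and 43.0 and 24.6 RPM (0.80) over its 3 peaks. NDUFA2 had 40.6 and 5.42 RPM at the first peak and 13.4 and 9.59 RPM at the second, which is 2.90 against 0.48. ATP5PB had 1.64 at its first peak and -0.01 at its last. The 7 exceptions included NDUFS7 and NDUFA11, whose last peaks had 1.98 and 0.70 against 1.41 and 0.23 at the first.

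**Figure D4:**
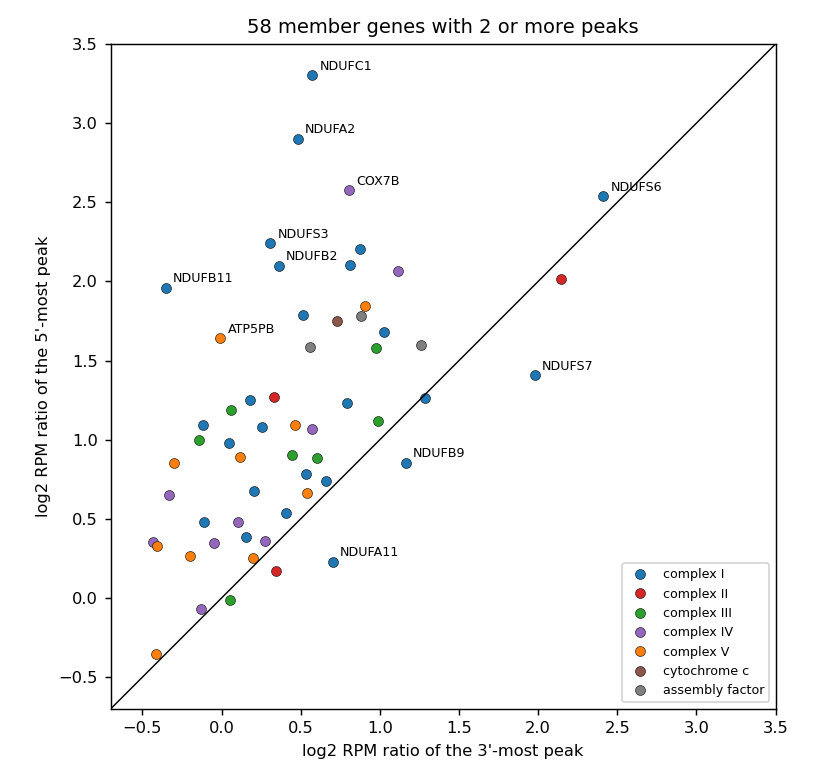
Log2 RPM ratio of the 3′-most peak (horizontal) and the 5′-most peak (vertical) of the 58 members with 2 or more peaks, coloured by group, with the line of equal values. Of the 58 points, 51 lie above the line, NDUFC1, NDUFA2 and COX7B farthest up, and NDUFS6 lies near it with both ends above 2.

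Peak width and input moved with this difference. The median width was 2214 nt for the 5′-most and 901 nt for the 3′-most peaks, and the median input was 6.87 and 11.5 RPM. The part of width and input in the difference was not tested. Among peaks of at least 1 RPM in input the share was 45 of 50 members (90.0%) against 71.5% of all genes, and among peaks of 100 nt or wider it was 44 of 49 (89.8%) against 69.7%. Peaks of one strand lay over a peak of the other in 25 of the 183 (13.7%), against 18.1% of all peaks. The kit of the labels keeps strand, but the way reads were assigned to strands is not given in the sources used here. The last peak of NDUFS7 (27.7 and 7.02 RPM) had a peak of 27.6 and 6.82 RPM on the other strand over 96.9% of the longer, and a 75-nt peak of UQCRQ (10.7 and 3.59 RPM) had one of 10.9 and 3.66 RPM. The first peaks of NDUFC1 and NDUFB11, which were among the genes with the widest gap between their ends, also lay over an opposite peak and had only 0.06 and 0.45 RPM in input. Without peaks of this kind the 5′ end was higher in 46 of 53 members (86.8%), against 70.8% of all genes.

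At the level of single peaks, 63 of the 183 (34.4%) were at 2 times input or more, against 55.7% of all peaks, and the median ratio was 0.72 against 1.10. RIP was below input in 23 member peaks (12.6%), against 3.84% of all peaks. All 23 had a deposited log2 fold change above 0, as did 684 of the 729 such peaks of the whole list. Over the member peaks that fold change lay above the log2 RPM ratio by a median of 0.75, and over all peaks by 0.79. Both are thus traits of the list and not of the members. Among peaks of at least 1 RPM in input, the highest ratios were those of the first peaks of NDUFA2 (2.90), COX7B (2.57) and NDUFS6 (2.54). The lowest were a 25-nt peak of COX7C at chr5:86620663-86620687 (4.79 and 6.46 RPM, -0.43), the last peak of ATP5MJ at chr14:103912613-103912712 (26.1 and 34.8 RPM, -0.41) and that of ATP5MK at chr10:103392427-103392451 (3.67 and 4.87 RPM, -0.41). All 3 of the lowest were the last peak of their gene. Together the member peaks held 1.31% of the RPM sum in RIP and 1.20% of that in input.

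The other genes that serve the chain had other ratios. The 6 NDUFAF genes had a median of 1.37, and 5 of them were at 2 times input or more, led by NDUFAF8 (107 and 21.7 RPM, ratio 2.30). A wider list of 54 assembly factors and related genes of complexes I to V included these. Of the 54, 46 had a peak, with a median of 1.28 and 36 at 2 times input or more, against 62.3% of all genes. COX17, which delivers copper to complex IV, had 96.3 and 9.65 RPM and a ratio of 3.32, and TTC19, a factor of complex III, had 5.48 and 0.80 RPM and a ratio of 2.76. SDHAF2, which helps attach FAD to SDHA, had 45.6 and 43.3 RPM, a ratio of 0.07. The list of assembly factors and related genes thus lay above the subunits (median 0.68 over 77 genes with CYCS), with inputs that were often lower. Of 12 regulators of mitochondrial genes, 8 had a peak. At 2 times input or more were 7 of these (87.5%), against 62.3% of all genes. Among the 7 were POLRMT, the mitochondrial RNA polymerase (2.22 and 0.26 RPM, ratio 3.05), and ESRRA (18.8 and 4.63 RPM, ratio 2.02). POLRMT, TFAM, TFB2M and PPRC1 had inputs under 1 RPM, a class in which 86.1% of all genes were at that level. GABPA had 0.77, and NRF1 and PPARGC1A had no peak. Of 14 enzymes of the tricarboxylic acid cycle, which feeds the chain, 10 had a peak, with a median of 0.38. At 2 times input or more were 2 of the 10 (20.0%), against 62.3% of all genes. MDH2 had 183 and 158 RPM, a ratio of 0.21.

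The ribosomal proteins were set beside the subunits, although their inputs differed. At 100 RPM or more of input were 71 genes of the cytosolic ribosome, 0 of the mitochondrial ribosome and 22 of the members. The 75 genes of the mitochondrial ribosome had a median of 0.78, with 29 (38.7%) at 2 times input or more, against 62.3% of all genes. The 75 of the cytosolic ribosome had a median of 0.58, with 21 (28.0%) at that level. The subunits of the chain, at 0.68, lay between. The subunits encoded by mitochondrial DNA had 11 of 13 genes with a peak and a median of -0.04, and 6 of them were below input. COX1 had 16842 and 18726 RPM (ratio -0.15) and COX2 13083 and 15939 RPM (-0.28), while CYTB had 18287 and 9042 RPM (1.02) and ND1 10043 and 5384 RPM (0.90). Within complex IV, COX6A1 and COX7A2 thus lay near the mitochondrial COX1, and COX4I1 at 1.64 lay far above it.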

How the data were processed

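RIP-seq was made from 2 PRMT5 RIP and 2 input libraries of Jurkat cells. The submitters' processing notes name fastp, HISAT2 and hg38. The peak caller, the annotation, the handling of reads with several matches and the pooling of replicates are not given in the sources used here. The authors deposited 1 peak list with RPM values rounded to 0.01, and the log2 fold change, p-value and FDR of their peak caller, which compare RIP with input. The authors' log2 values were used only as an alternative, their FDR only as a filter, and their p-values not at all.

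Peaks with several identifiers were counted under the first. Symbols came from the rows of the study's target table used here (8 members) and otherwise from the RefSeq gene of GRCh38.p14 that the peaks overlapped best on the same strand, with 100 nt allowed on either side of the gene (76 members); peaks could reach farther out. Both routes named 827 identifiers, 820 of them alike. For 15 members the tables gave no strand and either was allowed. RPM values were summed per gene and the ratio was log2((RIP + 0.01)/(input + 0.01)), called at 2-fold. The reference holds 193 pseudogenes with the same prefixes, which can share reads with members.

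Members and lists were chosen with earlier results of these data known. Genes were named by rule: all of complexes II, III and V and CYCS, the 4 highest and 4 lowest of complexes I and IV with at least 1 RPM of input, the core subunits of complex I, the largest summed RIP of each complex, and the genes of the 3 highest and 3 lowest peaks. Some of these are not reported here. Genes named as largest in the difference between ends, and those of the other lists, were chosen after their values were seen. Alternatives changed the pseudocount, filters, the assignment, the scaling and the value per gene. The steps were tested on simulated data. Python 3.11.15, pandas 2.3.3, numpy 2.4.6, scipy 1.17.1 and matplotlib 3.10.9 were used.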

Additional observations from a re-analysis of the deposited data

How the results depend on the processing

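No paired analysis was possible because the peak list holds 1 pooled value per group, so no replicate could be left out or blocked. The values describe enriched peaks only: a gene without a called peak has no value, and depth sets which messages could be called. The median of the members was below that of all genes under all alternatives, by 0.49 on the log2 scale as reported and by 0.08 with a pseudocount of 1, where 33.3% of members and 30.0% of all genes were at 2 times input or more. With the RIP values rescaled to the input sum (a shift of 0.63), the medians were 0.086 for member genes and 0.097 for member peaks, with 9 genes and 28 peaks at 2 times input or more and 38 genes below input, and 10.7% of members against 28.6% of all genes were then at 2 times input or more. The medians of complexes I and III were then 0.22 and 0.051, and those of II, IV and V turned to -0.16, -0.32 and -0.25, because every value moved down by the same amount. With the authors' log2 fold change, the medians were 1.58 for genes and 1.58 for peaks, with 69 genes and 139 peaks at 2 times input or more and 0 below (84.1% of member genes against 94.9% of all genes), and 1.84, 1.36, 1.30, 1.08 and 1.34 for complexes I to V. Of the 10 pairs of complexes, 8 kept their order with that measure, with at least 1 RPM of input per peak and with peaks of 1 identifier, and 9 without peaks of 5000 nt or wider. With the peak of highest input in place of the sum, 11 genes were below input, CYC1 and ATP5F1B moved to 0.06 and -0.30, and NDUFA2, COX7B, NDUFS7 and UQCRQ, at 2 times input or more as reported, had 0.48, 0.80, 0.89 and 0.98. A pseudocount of 1 moved SDHA to 1.47. Adding COXFA4 to complex IV, chosen after seeing the data, and the other alternatives moved none of the medians or counts of members by more than 1.5 times.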
